A study of Mus musculus with 19 samples.

Results

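The 34 genes described here encode the enzymes of cholesterol synthesis and of fatty acid synthesis, desaturation and elongation, together with the regulators that set their transcription. They were taken by symbol from a fixed list and matched to Ensembl gene identifiers, and all 34 were found among the 48709 genes counted in each library. All 34 also passed the filter on low counts, at least 5 reads in at least 50% of the libraries, which left 19297 genes for testing.

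RNA was sequenced from the microdissected CA1 region of the hippocampus of mice at an age of 7 months, in 19 libraries. Of these, 6 libraries (WT control) came from wild-type littermates. Their titles also carry the word anti-miR-mix, while the study describes the animals as having received scrambled control oligonucleotides. The other libraries came from APPPS1-21 mice, an amyloid model that carries mutant human APP under the Thy1 promoter, which is active in neurons. Among them, 6 libraries (APP control) came from mice given control oligonucleotides and 7 (APP anti-miR-mix, also called the treated mice) from mice given inhibitors of miR-146a-5p, of miR-148a-3p and of miR-181a-5p together. Both were delivered in lipid nanoparticles placed in the dorsal hippocampus, so every group had undergone the injection. The labels do not say that each library was a separate animal, so that the p-values below measure the spread between libraries.

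Most cholesterol of the brain is made within it, since lipoprotein cholesterol hardly crosses the blood-brain barrier, and oligodendrocytes and astrocytes make much of it in the adult. Acetyl-CoA is built up through mevalonate to squalene, closed into the sterol ring and trimmed to cholesterol. The SREBP transcription factors, encoded by Srebf1 and Srebf2, raise the genes of this route when membrane sterol is low: the escort protein SCAP carries them to the Golgi for cleavage, and INSIG proteins hold them back when sterol is plentiful. Fatty acids are built from the same acetyl-CoA by acetyl-CoA carboxylase and fatty acid synthase, then lengthened by elongases and desaturated.

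The libraries held 19362343 to 37018917 counts. The CA1 markers Wfs1, Fibcd1 and Pou3f1 were present in every library, with WT control means of 5909.5, 6557 and 2687 normalized counts, and the dentate gyrus markers summed to 1750 to 4733 over 4 genes. The choroid plexus sum, 4 of whose 6 genes passed the filter, was highest in WT control 5 (2367 normalized counts) and APP anti-miR-mix 6 (1614). Xist, which marks female tissue, was at 5.95 to 19.1 normalized counts in every library.

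The inhibitors were directed at microRNAs whose seed, bases 2 to 8 from the 5′ end, pairs with target transcripts. Their mature sequences in RefSeq, on build GRCm38.p6, are shown with the seed in capitals because many direct targets of a microRNA carry its complement in their 3′ UTR. Shorter or imperfect sites, and sites elsewhere in a transcript, were not searched.
mmu-miR-146a-5p: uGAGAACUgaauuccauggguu
mmu-miR-148a-3p: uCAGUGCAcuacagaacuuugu
mmu-miR-181a-5p: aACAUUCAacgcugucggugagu
The 3 seeds differ from each other. In the longest 3′ UTR of a protein-coding transcript (GENCODE M21), 13 of the 34 genes held at least 1 complement of a seed, against 34.9% of the 15397 tested genes with such a 3′ UTR. The median 3′ UTR of the 34 genes was 1510.5 bases and that of all tested genes 1161 bases.

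Promoters were printed for those genes past the threshold in both comparisons against WT control for which RefSeq gave a sequence, namely Nsdhl, Msmo1 and Acat2. Each run is the 250 bases before the RefSeq gene start on build GRCm38.p6, 5′ to 3′ on the strand of the gene. CCAAT or its reverse complement ATTGG, the letters bound by the SREBP partner NF-Y, are in capitals. RefSeq and GENCODE M21 starts differ, so that the runs of Msmo1 and Acat2 reach into the GENCODE bounds given for these genes below.
Nsdhl, chrX:72918271-72918520, plus strand: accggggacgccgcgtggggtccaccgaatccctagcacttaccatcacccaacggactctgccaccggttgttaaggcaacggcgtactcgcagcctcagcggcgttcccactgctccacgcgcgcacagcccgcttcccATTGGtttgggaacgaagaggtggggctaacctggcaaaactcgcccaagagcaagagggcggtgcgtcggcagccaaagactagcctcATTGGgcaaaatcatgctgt
Msmo1, chr8:64733579-64733828, minus strand: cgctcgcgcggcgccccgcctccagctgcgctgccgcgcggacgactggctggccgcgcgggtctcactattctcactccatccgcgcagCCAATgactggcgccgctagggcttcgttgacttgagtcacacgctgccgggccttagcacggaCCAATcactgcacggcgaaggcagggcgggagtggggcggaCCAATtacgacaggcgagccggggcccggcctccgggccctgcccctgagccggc
Acat2, chr17:12960726-12960975, minus strand: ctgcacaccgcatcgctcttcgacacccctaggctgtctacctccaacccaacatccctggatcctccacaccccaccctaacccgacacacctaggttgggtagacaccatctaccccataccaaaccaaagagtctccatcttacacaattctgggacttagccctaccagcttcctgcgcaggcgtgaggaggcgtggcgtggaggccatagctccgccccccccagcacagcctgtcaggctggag
Nsdhl held 2 such matches, Msmo1 held 3 and Acat2 held 0 in these bases. Over the whole RefSeq window, from 250 bases before to 50 bases after the start, 22 of the 27 genes of the list with a promoter in the table held CCAAT on either strand, in 23 of 33 promoters, against 37.4% of all 32851 promoters. The sterol regulatory element, searched as TCACNCCAC on both strands, was in 1 of the 27, Hmgcs1, against 1.24% of all promoters. GGGCGG, the letters of the Sp1 box, was in 25 of the 33 promoters against 35.7% of all. These are matches of letters and say nothing of binding.

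In WT control tissue several fatty acid genes stood among the highest per length. Scd2, the main stearoyl-CoA desaturase of the brain, was at 8639 ± 571 normalized counts per kb of exon (SD, n = 6). Fads1, a desaturase of polyunsaturated fatty acids, was at 1343 ± 83.5, and Hmgcs1, the HMG-CoA synthase of the mevalonate route, at 1343 ± 146. Scd1 (1110 ± 152), Fasn (1049.9 ± 55.1), Acly (1007 ± 67.9), Srebf2 (948 ± 61.7) and Fads2 (884 ± 57.1) followed. Fads1 and Hmgcs1 differed by less than their SDs, and so did Scd1 and Fasn, Fasn and Acly, and Acly and Srebf2 when set against the larger SD of each pair. Idi1, the isopentenyl diphosphate isomerase, stood lowest at 12.1 ± 3.22 per kb, below Fdps, the farnesyl diphosphate synthase, at 17.8 ± 1.48. Acaca (59.2 ± 5.64) and Lbr (80.0 ± 6.95) came next, with raw counts of at least 280 in every library.

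The low values of Idi1 and Fdps carry a limit of the counting. Their raw counts were 21 to 69 and 46 to 136. Of all 50-base windows of their annotated transcripts, the length of the reads, 25.3% of those of Idi1 and 26.2% of those of Fdps also occur in transcripts of another gene, among them processed pseudogenes. The same share was 39.1% for Acat2, mostly shared with Acat3 and Tcp1, 30.4% for Acaca and 26.5% for Fdft1. Sqle (0.0358%), Msmo1 (0.718%), Nsdhl (0%) and Stard4 (0%) shared few windows or none. How reads that match several genes were counted was not given in the sources used here.

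The first comparison asks how the genes differ in the amyloid-bearing CA1 when no microRNA is inhibited. Relative to WT control, 7 of them had higher counts in the APP control libraries by DESeq2 at an adjusted p under 0.05, and none was lower. Over all genes tested, 3.66% were higher by the same rule and 1.05% lower. They were Srebf1, the gene of SREBP-1, Acat2, the thiolase that joins the first acetyl-CoA units, Fdft1, the squalene synthase, Sqle, the squalene epoxidase that limits the rate of the later route, Msmo1 and Nsdhl, which together take methyl groups off the sterol ring, and Stard4, which carries cholesterol between membranes. The estimates of 29 of 34 were above 0, with a median log2 fold change of 0.14, against a median of -0.01 over all genes, of which 45.6% were above 0. An unadjusted p under 0.05 was reached by 17 of 34, against 13.7% of all genes. In bulk tissue, a change in the number of cells of a type and a change of RNA per cell cannot be told apart.

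The plot of the genes past the threshold shows how far the groups lay apart. Sqle (chr15:59315077-59331192, plus strand; gene positions are those of GENCODE M21 on GRCm38) ran from 1717 to 2085 normalized counts in WT control (median 1832), 1974 to 2562 in APP control (median 2484) and 2113 to 2972 in the treated mice (median 2333). Only APP control 5 reached into the WT control range, and the APP anti-miR-mix libraries all lay above it. The log2 fold change of APP control over WT control was 0.36 ± 0.08 (SE; 1.29-fold; DESeq2 adjusted p = 0.000559), and that of APP anti-miR-mix over WT control 0.38 ± 0.08 (1.30-fold; adjusted p = 9.2e-05).

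**Figure D1:**
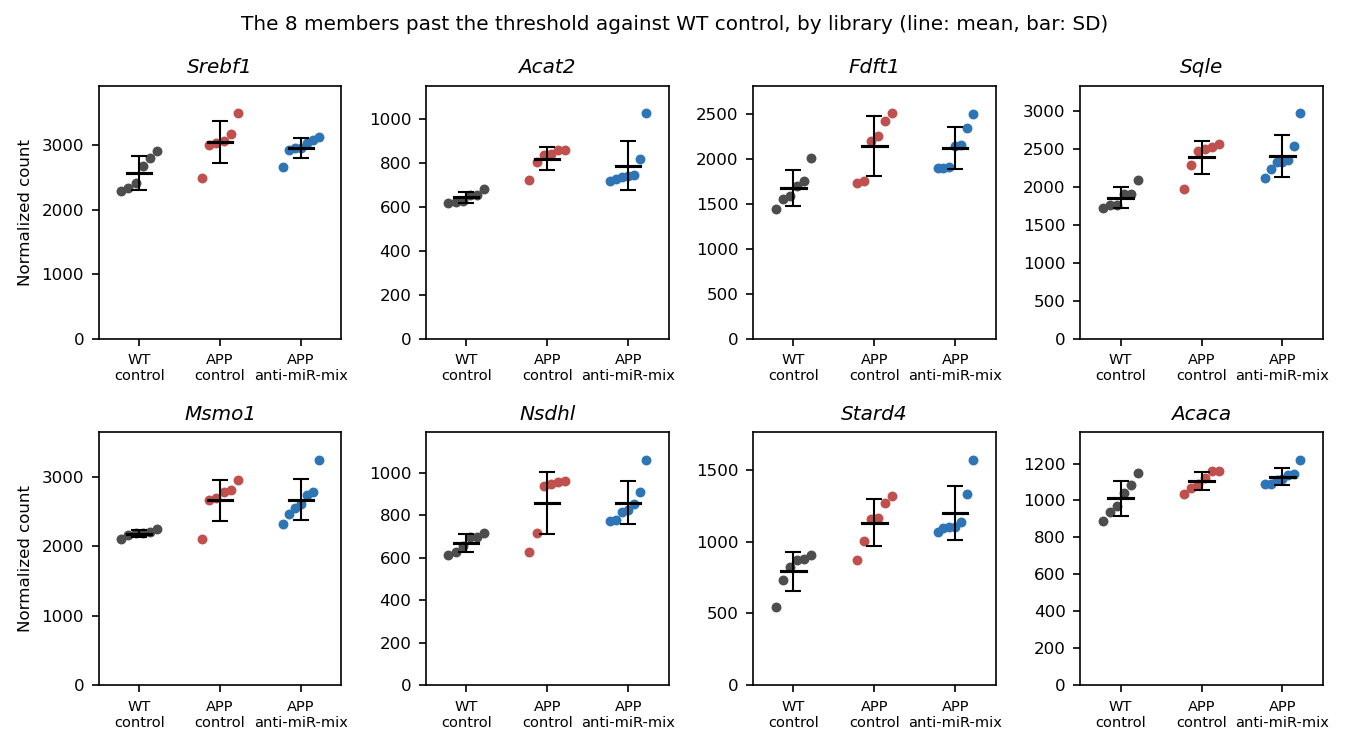
Normalized counts (vertical axes, from 0) of the 8 genes past the threshold in either comparison against WT control, one point per library, with the mean as a line and the SD as a bar; n = 6 for each control group and 7 for APP anti-miR-mix. For Acat2, all APP control libraries (724.6 to 859.7) and all APP anti-miR-mix libraries (719.6 to 1029) stand above the WT control libraries (620.6 to 684).

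Stard4 changed most among the 34 genes. Its counts were 547 to 909.7 in WT control (median 849), 875 to 1315 in APP control (median 1161) and 1067 to 1572 in the treated mice (median 1101). APP control 5 alone lay within the WT control range, whose lowest library was WT control 4, and no APP anti-miR-mix library did. The difference of APP control from WT control was 0.51 ± 0.13 (SE; 1.43-fold; DESeq2 adjusted p = 0.00291), and that of APP anti-miR-mix from WT control 0.60 ± 0.12 (1.51-fold).

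Acat2 (chr17:12942890-12960747, minus strand) was at 620.6 to 684 in WT control (median 641), 724.6 to 859.7 in APP control (median 840.2) and 719.6 to 1029 in the treated mice (median 742). It was the one gene of the 34 in which every APP control library lay above every WT control library, a pattern found in 1.2% of all genes. The log2 fold changes against WT control were 0.35 ± 0.08 in APP control (adjusted p = 0.000954 by DESeq2) and 0.29 ± 0.08 in the treated mice (adjusted p = 0.00476). Acat3, its close paralogue, with which it shares sequence, was at -0.01 ± 0.15 and 0.06 ± 0.15 in the same comparisons.

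Msmo1 (chr8:64718139-64733792, minus strand), the methylsterol oxidase, was held within a narrow band in WT control, 2107 to 2246 (median 2191). It ran from 2099.6 to 2951 in APP control (median 2739.8) and spanned 2327 to 3252 in the treated mice (median 2609.7). APP control 5 was below every WT control library, and the other 5 APP control libraries were above all of them. The differences from WT control were 0.29 ± 0.08 in both transgenic groups (DESeq2 adjusted p = 0.0114 and 0.00398).

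Nsdhl (chrX:72918557-72958514, plus strand), which acts with Msmo1, was at 612 to 716 in WT control (median 676), 628 to 960.5 in APP control (median 941) and 770.1 to 1062 in the treated mice (median 826). APP control 5 and 6 fell within the WT control range, while the other 4 APP control libraries and all APP anti-miR-mix libraries stood above it. The differences were 0.36 ± 0.11 (DESeq2 adjusted p = 0.0198) and 0.37 ± 0.10 (adjusted p = 0.00735).

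Fdft1 (chr14:63145150-63179578, minus strand) was at 1440.4 to 2012 in WT control (median 1641), 1732 to 2508 in APP control (median 2226) and 1894 to 2496 in the treated mice (median 2144). The groups overlapped in both comparisons. The differences from WT control were 0.36 ± 0.11 (DESeq2 adjusted p = 0.0210) and 0.34 ± 0.10 (adjusted p = 0.0142). On the opposite strand Fdft1 shares 774 exon bases, 18.3% of its exons, with Ctsb, the gene of the lysosomal protease cathepsin B. Ctsb had a mean of 26977 normalized counts and was itself higher, by 0.43 ± 0.12 in APP control (adjusted p = 0.0114 by DESeq2) and 0.49 ± 0.12 in the treated mice. The library kit does not mark strand, so that the part of Ctsb reads in the Fdft1 value was not tested.

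Of the regulators, Srebf1 (chr11:60199089-60222581, minus strand) was at 2294 to 2906 in WT control (median 2543), 2493 to 3498 in APP control (median 3042) and 2655 to 3129 in the treated mice (median 2951). The groups overlapped, with APP control 6 lowest and APP control 2 highest among the APP control libraries. The difference of APP control from WT control was 0.24 ± 0.08 (DESeq2 adjusted p = 0.0315), and that of APP anti-miR-mix was 0.21 ± 0.07 and missed the threshold (adjusted p = 0.0531). Srebf2, the gene of SREBP-2, was estimated at 0.20 ± 0.08 and Insig1, itself an SREBP target, at 0.22 ± 0.09 in APP control, neither past the threshold (DESeq2 adjusted p = 0.198 and 0.173). Scap was at -0.05 ± 0.07.

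The 7 genes of the mevalonate steps all had estimates above 0 in APP control, from 0.14 (Mvd) to 0.39 (Fdps), with Acat2 alone past the threshold. Hmgcs1 was at 0.22 ± 0.11, Mvk, the mevalonate kinase, at 0.24 ± 0.11 and Pmvk, the kinase after it, at 0.18 ± 0.08 (DESeq2 adjusted p = 0.316, 0.280 and 0.295). Fdps, from its low counts, was at 0.39 ± 0.15 (adjusted p = 0.108). Of the 12 genes of the squalene and ring steps, 4 passed and 11 had estimates above 0, with a median of 0.15, against 3.66% of all genes higher and 45.6% above 0. Cyp51, the lanosterol demethylase, lies in the middle of this route and was at -0.02 ± 0.05, with 2077 to 2235 counts in WT control and 2022 to 2295 in APP control, wholly overlapping. Its interval was -0.12 to 0.07 on the log2 scale. The 4 genes of these steps that passed were picked by their estimates in the same libraries. Setting Cyp51 beside them therefore cannot decide whether it differs from its route, and no such difference was tested.

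The fatty acid genes had a lower median. Of the 10, 7 had estimates above 0 in APP control against WT control, and their median log2 fold change was 0.05. Of the 19 sterol enzymes, 18 were above 0, with a median of 0.17. Over all genes 45.6% were above 0, with a median of -0.01. Of the 19 sterol enzymes 5 passed, against 3.66% of all genes called higher. None of the 10 fatty acid genes passed, which is near that share and no result about them. The difference between the 2 arms was not tested. Acaca, the acetyl-CoA carboxylase, had the highest estimate of the 10 (0.13 ± 0.06; DESeq2 adjusted p = 0.207), and Acss2, which makes acetyl-CoA from acetate, the lowest (-0.10 ± 0.07; adjusted p = 0.536). Fasn (0.04 ± 0.08), Scd2 (0.05 ± 0.06), Scd1 (0.04 ± 0.10) and Acly, the ATP citrate lyase (0.05 ± 0.07), all lay within 1 SE of 0. Elovl6, an elongase of saturated chains, was at -0.09 ± 0.06.

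**Figure D2:**
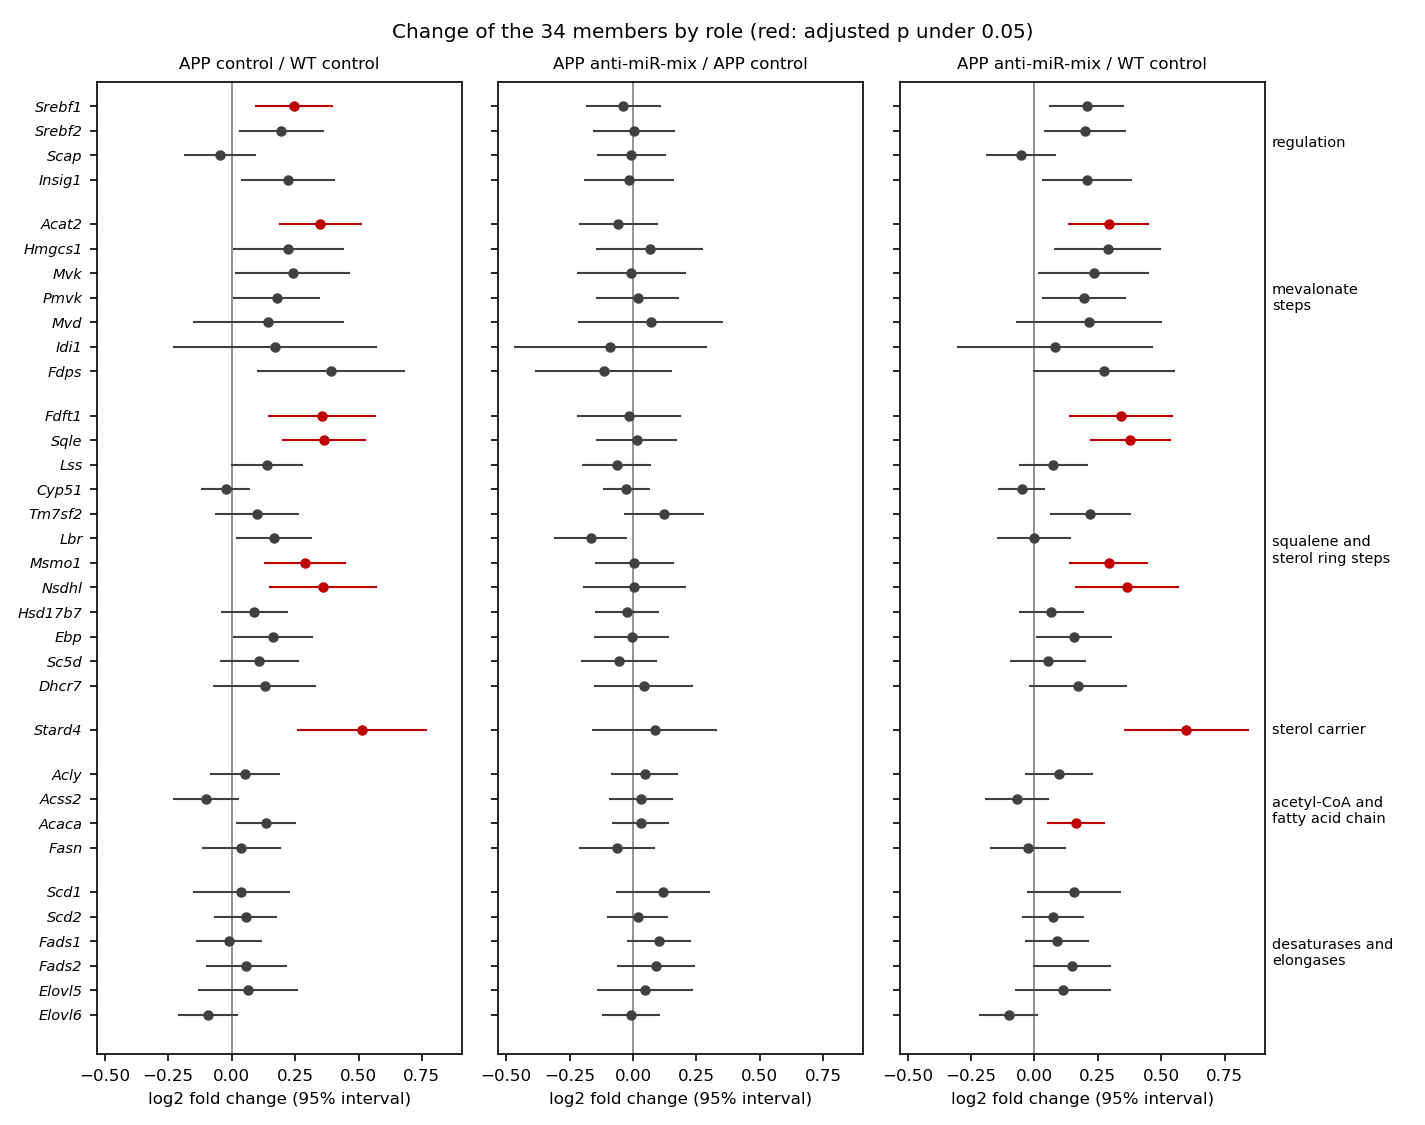
Log2 fold change (horizontal axes) with its 95% interval for each of the 34 genes, ordered by role, in the 3 comparisons; red marks an adjusted p under 0.05 by DESeq2. In each comparison against WT control 7 genes are red, with sterol enzymes to the right of 0 in 18 of 19 (APP control) and 17 of 19 (APP anti-miR-mix), and none is red between the 2 transgenic groups.

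The count of 7 in APP control rests in part on the tool and on single libraries. By edgeR's quasi-likelihood test it was 4 (Acat2, Sqle, Msmo1 and Stard4), and leaving out 1 library at a time gave 3 (without APP control 4) to 9 (without APP control 5 or 6), with 4 without WT control 4 or without APP control 2 or 3. The count called higher over all genes, 706 in the reported fit, moved the same way in these fits. It was 537 by edgeR, 582 without APP control 4, 744 without APP control 5 and 867 without APP control 6. Without WT control 4 it was 600, and without APP control 2 or 3 it was 565 or 550. Acat2, Sqle and Stard4 passed in each of the 30 alternatives run. Srebf1 lost its call without WT control 4, 5 or 6 or APP control 2, 3, 4 or 5 (DESeq2 adjusted p 0.0583 to 0.129), Fdft1 without WT control 4, 5 or 6 or APP control 1, 2, 3 or 4 (0.0520 to 0.0830), Nsdhl without WT control 4 or APP control 1, 2, 3 or 4 (0.0551 to 0.0802) and Msmo1 without APP control 4 (0.0525). Calls were also lost in other fits. Srebf1 missed the threshold with only the 2 groups fitted (DESeq2 adjusted p = 0.117) and, like Fdft1, without the libraries highest in choroid plexus genes, WT control 5 and APP anti-miR-mix 6 (0.0957 and 0.0569). By edgeR, Srebf1 (adjusted p = 0.0765), Fdft1 (0.0558) and Nsdhl (0.0529) missed it, and Msmo1 did with the number of the authors' normalized table as a factor (DESeq2 adjusted p = 0.0515). That factor gave 622 genes called higher over all genes, and the same number fitted linearly gave 877. The replicate block gave 802, the Xist level 805 and limma 880. The part of these shifts over all genes in the lost calls was not tested.

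The second comparison asks what the inhibitor mixture changed within transgenic mice. None of the 34 genes passed the threshold between the treated mice and APP control, as for all genes (0.0% called by DESeq2). An unadjusted p under 0.05 was reached by 1 of the 34 and by 552 of 19297 genes (2.86%; 572 by edgeR, which called 0 as well). The estimates of 18 of 34 were above 0, and their median log2 fold change was 0.0045, against -0.0015 over all genes.

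The 1 gene was Lbr, the lamin B receptor, a protein of the inner nuclear membrane that is also a sterol reductase. It (chr1:181815335-181843046, minus strand) was at 342 to 423 normalized counts in WT control (median 375), 388 to 497 in APP control (median 417) and 331 to 416 in the treated mice (median 382). APP control 5 was the highest library and APP anti-miR-mix 7 the lowest, and the groups overlapped. The log2 fold change of APP anti-miR-mix over APP control was -0.17 ± 0.07 (95% interval -0.31 to -0.03; DESeq2 adjusted p = 1.00).

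Lbr was also the 1 gene of the 34 with a seed complement for both miR-148a-3p and miR-181a-5p in its 3′ UTR of 1523 bases. The sites, read from GENCODE M21 transcripts with the complement in capitals, are shown since they are places at which the inhibited microRNAs could pair.
Lbr, miR-148a-3p, chr1:181816771-181816799, minus strand: aactaatgtgaTGCACTGacaggatctct
Lbr, miR-181a-5p, chr1:181816288-181816316, minus strand: tgtacagttttTGAATGTgagataattgt
The estimate of Lbr under the inhibitors was below 0. Of the 6 genes with a miR-148a-3p complement, 0 had an estimate above 0 in this comparison, with a median of -0.06. Among the 5 genes with a miR-181a-5p complement, 2 were above 0 (median -0.02), and among the 4 with a miR-146a-5p complement, 3 were above 0 (median 0.08). These are counts of few genes, none of which passed the threshold.

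The next 4 genes by unadjusted p were desaturases and a sterol reductase. Fads1 was at 5380 to 7000.3 in APP control (median 6484) and 6019 to 7274 in the treated mice (median 7027), overlapping, with a difference of 0.10 ± 0.06 (95% interval -0.02 to 0.22). Tm7sf2, a sterol reductase with the activity of Lbr, was at 552 to 643 in APP control (median 637) and 581 to 790.2 in the treated mice (median 668), with a difference of 0.12 ± 0.08 (-0.03 to 0.28). In both genes the lowest APP control library lay below every treated library.

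Scd1 was at 5028 to 6189.6 in APP control (median 5506) and 5572 to 7456 in the treated mice (median 5752), with a difference of 0.12 ± 0.09 (95% interval -0.06 to 0.30). Fads2, which begins the desaturation of essential fatty acids, was at 2490.3 to 3369 in APP control (median 3165) and 2865 to 3499 in the treated mice (median 3228), with a difference of 0.09 ± 0.08 (-0.06 to 0.24). The ranges overlapped in both genes, and all 4 adjusted p-values by DESeq2 were 1.00.

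For the genes that had passed in APP control, the intervals of the treated against the untreated transgenic group were as follows. Sqle lay between -0.14 and 0.17 on the log2 scale, Acat2 between -0.21 and 0.10, Msmo1 between -0.15 and 0.16 and Srebf1 between -0.18 and 0.10. Nsdhl (-0.19 to 0.20), Fdft1 (-0.22 to 0.18) and Stard4 (-0.16 to 0.33) had wider ones. Over the 34 genes the widest bounds were -0.47 (Idi1) and 0.35 (Mvd). Changes inside the interval of a gene remain compatible with these libraries.

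The third comparison sets the treated transgenic group against WT control and shares the WT control libraries with the first. Of the 34 genes, 7 were higher and none lower, against 5.59% of all genes higher and 3.36% lower. There were 6 called in both comparisons (Acat2, Fdft1, Sqle, Msmo1, Nsdhl and Stard4), and 8 in either. The estimates of 28 of 34 were above 0, and their median was 0.16 against -0.02 for all genes. In 6 genes (Acat2, Sqle, Msmo1, Nsdhl, Ebp and Stard4) every treated library lay above every WT control library, against 2.52% of all genes.

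Acaca was the fatty acid gene called here. It (chr11:84129672-84401651, plus strand) was at 890.2 to 1147 in WT control (median 1004), 1035 to 1162 in APP control (median 1106) and 1087 to 1222 in the treated mice (median 1117). The WT control libraries spread widely, from WT control 4 at the bottom to WT control 2 above all but 1 treated library. The difference was 0.16 ± 0.06 (DESeq2 adjusted p = 0.0383), and by edgeR it did not pass (adjusted p = 0.0722).

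Ebp, the sterol isomerase, was at 353 to 417 in WT control and 418 to 457 in the treated mice, just apart, with a difference of 0.16 ± 0.07 that did not pass (DESeq2 adjusted p = 0.203). Tm7sf2 (0.22 ± 0.08; adjusted p = 0.0532) and Hmgcs1 (0.29 ± 0.11; adjusted p = 0.0622) lay close to the threshold. Dhcr7, the enzyme of the last step to cholesterol, was at 0.17 ± 0.10, Sc5d, the sterol desaturase, at 0.05 ± 0.07, Hsd17b7, which acts after Nsdhl, at 0.07 ± 0.06 and Lss, the lanosterol synthase, at 0.07 ± 0.07. Cyp51 was again near 0 (-0.05 ± 0.05). The elongases diverged in sign, with Elovl5, which extends polyunsaturated chains, at 0.11 ± 0.09 and Elovl6 at -0.10 ± 0.06, neither past the threshold.

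Acat2, Sqle, Msmo1, Nsdhl and Stard4 passed against WT control in each of the 30 alternatives. Leaving out 1 library at a time gave 5 (without WT control 4) to 10 (without APP control 5) genes called, and 7 without APP anti-miR-mix 7, with Srebf1 then in place of Acaca. Fdft1 lost its call without WT control 4 (DESeq2 adjusted p = 0.0608) or WT control 6 (0.0506), and Acaca without WT control 1, 4, 5 or 6 or APP anti-miR-mix 1, 2, 3, 5, 6 or 7 (0.0517 to 0.145). Acaca also missed the threshold with only the 2 groups fitted (DESeq2 adjusted p = 0.0666), without WT control 5 and APP anti-miR-mix 6 (0.131) and with the Xist level as a term (0.0632). Other fits called more genes, 12 with the replicate number as a block, 12 with the number of the authors' normalized table as a linear term or as a factor, and 11 by limma on that table. Over all genes the count called higher, 1078 in the reported fit, was 1228 with the block, 1295 with the linear term, 1026 with the factor and 1425 by limma.

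Some libraries deviated across many of the genes at once. In APP control 5, 18 of 19 sterol enzymes and 10 of 10 fatty acid enzymes were below their group mean, by a mean of 0.21 in each on the log2 scale. In WT control 4, 18 of 19 and 9 of 10 were below it, by a mean of 0.09 and 0.12. In APP anti-miR-mix 5, 17 of 19 and 8 of 10 were below it, by a mean of 0.12 and 0.05, and in APP anti-miR-mix 3, 17 of 19 sterol enzymes were, by a mean of 0.08, with 4 of 10 fatty acid enzymes. APP anti-miR-mix 7 stood the other way in the sterol enzymes alone, with 17 of 19 above its group mean by a mean of 0.21, while its fatty acid enzymes were split 6 to 4.

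**Figure D3:**
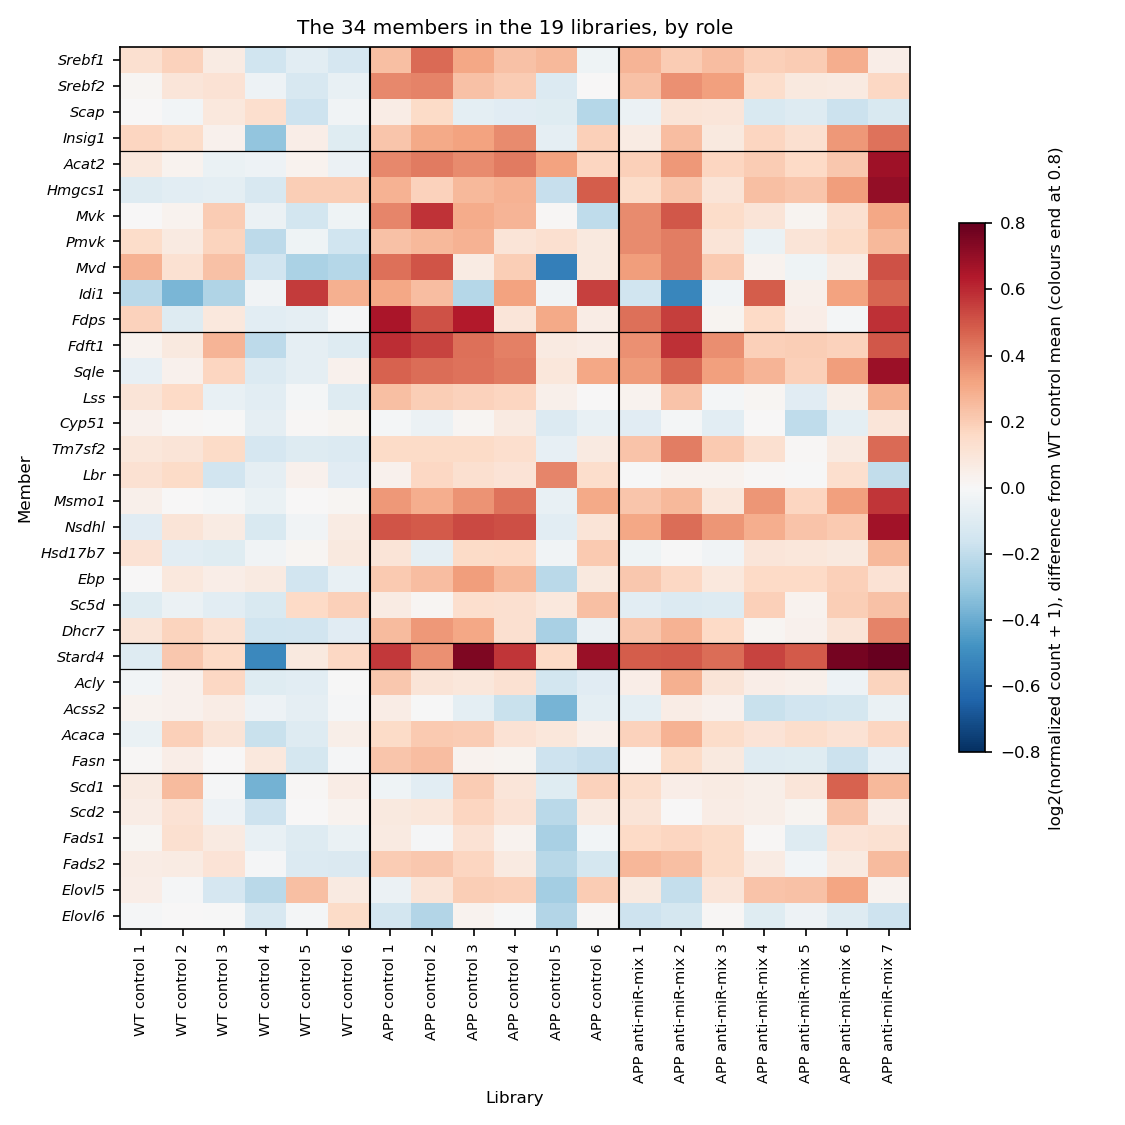
Difference of log2(normalized count + 1) from the WT control mean (colour, red above and blue below, ending at 0.8) for the 34 genes (rows, by role) in the 19 libraries (columns, by group). The red of most sterol rows, though not of Cyp51 or, in the treated mice, Lbr, runs through both transgenic groups. APP control 5 is paler or blue in most of these rows, though highest in Lbr. APP anti-miR-mix 7 is darkest in Acat2, Hmgcs1, Sqle, Nsdhl and Stard4.

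After centring each group, the genes varied together across the 19 libraries, given here as a description of libraries that share tissue and depth. The median Pearson r was 0.48 over the 171 pairs of sterol enzymes, 0.42 over the 45 pairs of fatty acid enzymes and 0.34 over the 190 pairs of 1 of each, against 0.01 over all pairs of genes with a mean of at least 300 normalized counts. Pairs of the 34 genes ran from -0.79 to 0.94. Among genes with a mean of at least 300 normalized counts, the gene most like Sqle was Nsdhl (r = 0.88). Dhcr7 (0.83) and Tm7sf2 (0.83) were also among the highest. So were genes outside sterol synthesis, among them Slc6a11 (0.84), Mfge8 (0.83), Mars (0.83) and Tuba1a (0.82).

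Markers of glia moved with the groups and with some of the libraries. All 10 genes marking amyloid-responsive glia were higher in both transgenic groups than in WT control, and their sum was 21911 to 39912 in WT control, 42722 to 121531 in APP control and 60316 to 109746 in the treated mice. APP control 5 and 6, lowest in that sum at 42722 and 47303, were also the lowest APP control libraries in the mean of the sterol enzymes. Among the treated mice the order was the other way for APP anti-miR-mix 7 and 2, lowest in that sum at 60316 and 62205 and highest in the sterol mean at 9.95 and 9.79. Of 8 homeostatic microglia markers, 6 were higher in APP control and 7 in the treated mice, against 3.66% and 5.59% of all genes, with sums of 10726 to 16217 in WT control, 14476 to 30265 in APP control and 20509.7 to 31178 in the treated mice.

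None of the 12 oligodendrocyte markers passed in any comparison, and their sum overlapped widely, at 178668 to 301423 in WT control, 164164 to 283553 in APP control and 145329 to 299718 in the treated mice. APP control 5 and WT control 4, low in most of the 34 genes, were lowest in this sum within their groups. APP anti-miR-mix 7 was lowest in it as well, at 145329, and highest in the sterol enzymes. None of the 10 astrocyte markers passed, with sums of 171117 to 204948, 175784 to 194718 and 167732 to 206083. Against WT control, 6 of the 10 astrocyte estimates were above 0 in APP control, with a median log2 fold change of 0.16. An unadjusted p under 0.05 was reached there by 3, against 13.7% of all genes. In the treated mice all 10 were above 0 (median 0.14). Such a p was reached by 5, against 19.4% of all genes. In 1 of the 10 every treated library lay above every WT control library, against 2.52% of all genes.

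Of 8 neuronal markers, 2 were lower in APP control, Gad1 and Gad2, against 1.05% of all genes, and 1 in the treated mice, Gad1, against 3.36%. The estimates of all 8 were below 0 in both transgenic groups (medians -0.10 and -0.14), and their sum was 272529 to 330394 in WT control, 265360 to 294955 in APP control and 263571 to 279829 in the treated mice, overlapping. Of 4 CA1 markers, none passed in any comparison. Between the treated mice and APP control their estimates ran from -0.55 to 0.58, and 2 had an unadjusted p under 0.05, against 2.86% of all genes. Most markers of the vessel wall and of blood did not pass. The 5 endothelial markers all had estimates above 0 in both transgenic groups (medians 0.28 and 0.25), with Flt1 alone higher in each (3.66% and 5.59% of all genes were), and their sum was 3147 to 4300.0 in WT control, 3719 to 6124 in APP control and 3154 to 4760.2 in the treated mice. The 4 blood markers were all above 0 as well (medians 0.76 and 0.52), with none past the threshold, and summed to 452 to 934, 598 to 2487 and 531 to 2012. Of 4 fibroblast markers, none passed in APP control and 2 were higher in the treated mice, Col1a1 and Col1a2, against 5.59% of all genes, with sums of 1343 to 3989, 1612 to 3250.1 and 1558 to 4480 in the same order. APP control 5, lowest of its group in the sterol mean, was highest of its group in the blood, endothelial and fibroblast sums, and APP anti-miR-mix 7, highest in the sterol mean, was highest in the fibroblast sum. The part of all these cell types in the changes of the sterol genes was not tested.

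**Figure D4:**
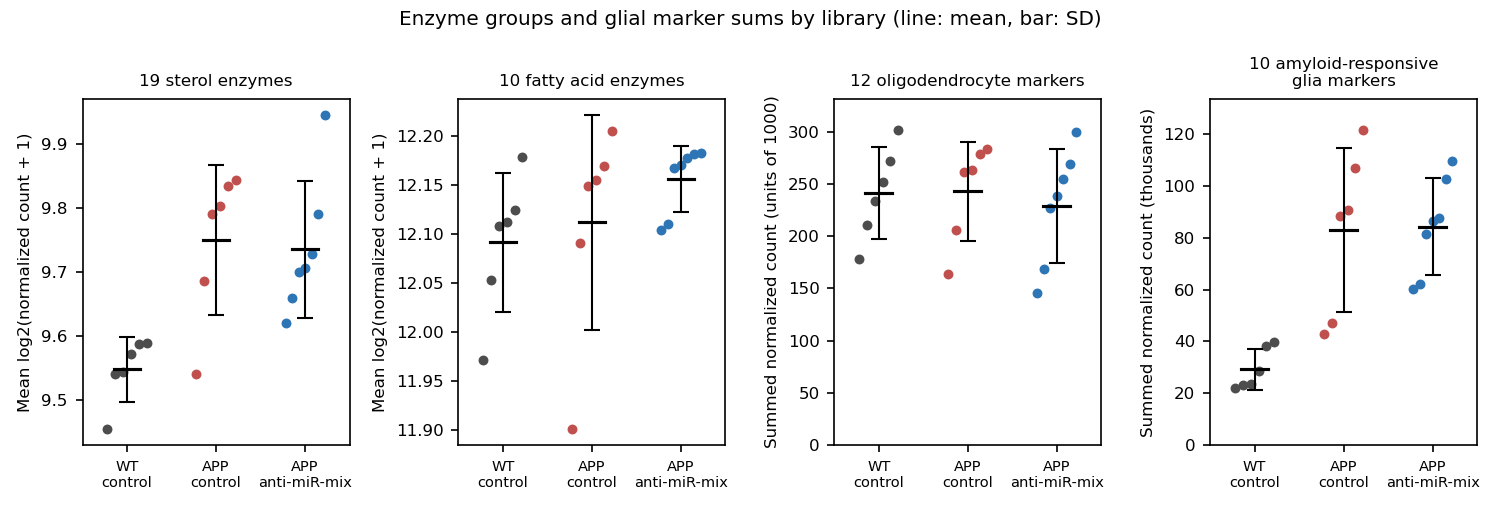
Per library, the mean log2(normalized count + 1) of the 19 sterol enzymes and of the 10 fatty acid enzymes (2 left panels, axes not from 0) and the summed normalized counts (axis units of 1000) of 12 oligodendrocyte and 10 amyloid-responsive glia markers (2 right panels, from 0), with group mean as a line and SD as a bar. The sterol mean is 9.45 to 9.59 in WT control, 9.54 to 9.84 in APP control and 9.62 to 9.95 in the treated mice; WT control and APP control overlap in it through APP control 5 (9.54), and the fatty acid means and oligodendrocyte sums overlap among all groups.

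A whole number from 1 to 5, removed by the authors from their normalized table, differed between libraries within groups, and its meaning was not given in the sources used here. Of the 4 numbers that WT control shares with both transgenic groups, numbers 1, 3 and 4 each hold 1 WT control library. The differences from WT control within these numbers are given as a description, since the genes were called on the same libraries. For Sqle they ran from 0.27 to 0.54 (APP control) and from 0.29 to 0.58 (treated mice) on the log2 scale, and for Stard4 from 0.18 to 1.17 and from 0.28 to 1.03. The smallest over the 8 genes called in either comparison was that of Nsdhl within number 4 in APP control, 0.03.

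Further genes of sterol and fatty acid handling were counted around the 34. Of 26 further fatty acid genes, 25 passed the filter and Elovl3 did not. In APP control, 1 of the 25 was higher than in WT control and none was lower, namely Thrsp, a gene that accompanies fatty acid synthesis (0.54 ± 0.13; DESeq2 adjusted p = 0.00179). A count of 1 in 25 is near the 3.66% of all genes higher there, and is no result about these genes as a list. None of 10 genes that control SREBP passed there. Among the genes of cholesterol turnover, Ch25h, a cholesterol hydroxylase, rose from 29.2 ± 14.3 (SD, n = 6) to 110.1 ± 36.2 (n = 6), a log2 fold change of 1.91 ± 0.31 (DESeq2 adjusted p = 2.17e-07), and Npc2, which takes cholesterol out of lysosomes, by 0.76 ± 0.15. None of these genes passed between the transgenic groups.

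In the treated mice against WT control, 2 of the 25 fatty acid genes were higher and 1 lower. Thrsp (0.39 ± 0.13) passed again, as did Hacd4, a dehydratase of fatty acid elongation (0.40 ± 0.14), and Acsl1, an acyl-CoA synthetase, was lower (-0.15 ± 0.04). These counts too are near those over all genes (5.59% higher and 3.36% lower). Rnf145, a ubiquitin ligase of sterol control, was the 1 of the 10 SREBP control genes to pass, and was lower (-0.17 ± 0.06). Ch25h (2.16 ± 0.30) and Npc2 (0.84 ± 0.15) were higher again, and Soat1, which esterifies cholesterol, was at 0.29 ± 0.07 (DESeq2 adjusted p = 0.00142).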

How the data were processed

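The authors deposited 1 file of read counts per gene for each of the 19 libraries (single-end TruSeq RNA v2 libraries of 50-base reads), and 1 normalized table on a log2 scale over 18825 genes. The submitters' processing notes name FastQC 0.11.5, STAR 2.5.2b, featureCounts of Subread 1.5.1 and the build mm10. The strand setting of the counting was not given in the sources used here. The members and the gene lists were chosen with earlier results of these data known.

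From the deposited counts, the 19297 genes that reached 5 counts in no fewer than 50% of libraries were kept. They were fitted over all 19 libraries and 3 groups in DESeq2 1.42.0 (R 4.3.3) with its Wald test and unshrunken log2 fold changes. The threshold was a Benjamini-Hochberg adjusted p under 0.05. DESeq2 gave an adjusted p to 18161 genes in each comparison against WT control and to 19284 between the transgenic groups. Shares of all genes are of the 19297. Normalized counts are counts divided by DESeq2 size factors, and intervals are 95% Wald intervals. Log2 levels were log2(normalized count + 1). Full values were given for genes called in any comparison and, where fewer than 5 were called, for the 5 with the smallest unadjusted p. Of the further pathway genes, those called in any comparison were named, at most 10. Some items of these lists and of the model are not reported here. Gene models were those of GENCODE M21, to which 48349 of 48709 identifiers were matched, and RefSeq gave promoters and microRNAs. No 2 libraries of a group were duplicates (lowest chi-square per gene 4.60). Alternatives were edgeR 4.0.16, TMM scaling, 2 other filters, only the 2 groups compared, the replicate number as a block, the number removed from the deposited table as a linear term or a factor, the Xist level, limma 3.58.1 on the deposited log2 table, leaving out WT control 5 and APP anti-miR-mix 6 together, and leaving out each library. The fit was tested on simulated counts. Figures were drawn with matplotlib.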

Additional observations from a re-analysis of the deposited data

Results flagged for a closer look

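In each of 102 groups of libraries (34 genes in 3 groups), the highest and the lowest library was set against the others by Dixon's test at the 95% level, and 8 stood apart, where chance gives about 1 in 20 (5.1). In APP anti-miR-mix 7, Acat2 was at 1029 normalized counts (others 719.6 to 821), Hmgcs1 at 10013 (6594 to 7755) and Hsd17b7 at 806 (656 to 721). In APP control 5, Msmo1 was at 2099.6 (others 2668 to 2951) and Scd2 at 40617 (49510.1 to 53034), both low, while Lbr was high at 497 (388 to 426). Cyp51 in WT control 4 was low at 2077 (2181 to 2235), and Acaca in APP anti-miR-mix 2 was high at 1222 (1087 to 1142). The libraries APP control 5 and APP anti-miR-mix 7 were kept in every result given above unless named as left out.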

How the results depend on the processing

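Of the alternatives run, none reversed the genes called against WT control or the 5 of lowest p between the transgenic groups, the single genes recomputed, and all calls of the 34 genes against WT control were upward in each. For APP control against WT control, the 7 genes called became 4 by edgeR and 3 to 9 without 1 library. Over all genes, the 706 called higher there became 537 by edgeR and 541 to 903 without 1 library. For APP anti-miR-mix against WT control, the 7 became 12 with the replicate block and 12 with the number of the deposited table, as a linear term or as a factor, 11 by limma on the deposited table and 5 to 10 without 1 library. Between the transgenic groups no gene of the 34 was called in any alternative, and over all genes the count of 0 became 3 with only the 2 groups fitted, 1 with the replicate block, 4 with the Xist level and 0 to 3 without 1 library. The causes were not tested. Medians over the 34 genes stayed within the spread between libraries under each alternative. Replicate numbers of the titles were run as a block. Deviations of same-numbered libraries correlated from -0.16 to 0.59, over 0.1 in 12 of 18 pairs. Of the 18 pairs, 12 also share the number of the deposited table, 9 of them over 0.1. Differently numbered libraries were not set beside them, so these values cannot decide whether the numbers are pairs. The reported fit did not use the numbers. With the block, 9 genes were called in APP control against WT control. The depth of at least 21 counts for Idi1 and 46 for Fdps limits these 2 genes.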
